A study of Mus musculus with 16 samples.

Results

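Medium spiny neurons are the GABAergic projection neurons that make up most of the striatum. Those of the direct pathway carry the dopamine receptor Drd1 and the peptide precursors Tac1 (substance P) and Pdyn (dynorphins). Those of the indirect pathway carry the dopamine receptor Drd2, the adenosine receptor Adora2a and the precursor Penk (enkephalins). Both kinds share a set of signalling proteins: Ppp1r1b, also called DARPP-32, a phosphatase inhibitor controlled by dopamine, Rgs9, which ends G protein signals, and Pde10a, a phosphodiesterase that breaks down cyclic nucleotides. These 9 genes, chosen by name for their known place in medium spiny neurons, are described here among 21878 mRNAs measured in the libraries of an experimental autoimmune encephalomyelitis (EAE) study. All 9 were found by symbol, and all 9 were among the 17885 mRNAs tested.

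The study compared 8 EAE mice with 8 PBS-treated mice, all female C57BL/6 animals (WT in the labels) aged 8 weeks. EAE is a mouse model of multiple sclerosis in which immunization against a myelin peptide leads to an immune attack on the central nervous system. The EAE mice received a MOG peptide, MOG35-55 by the study's methods, in complete Freund's adjuvant, with 200 ng of pertussis toxin on days 0, 2 and 7, and the controls received PBS. The last residue of the peptide is written as 55 to 62 across EAE 1 to EAE 8 in the labels' treatment field. The cells were collected on day 14, at the peak of the disease by the study's methods, and were sorted as CD11b+/CD45int microglia. One library of total RNA, depleted of ribosomal RNA, was sequenced per sample. Total counts per library were 24587443–30244215 for EAE and 26031889–34184576 for PBS. The methods give 8 mice per group and the same number of sequenced samples, and the p-values measure the spread between these samples.

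The labels name microglia, so the content of the libraries was checked first on markers of brain cell types, as FPKM (counts scaled to gene length and to the total count of the library, which can be compared between genes). The mean over 12 microglia markers was 15.2–24.9 FPKM in the EAE libraries and 13.8–22.8 FPKM in the PBS libraries. Tmem119, a marker of resident microglia, averaged 7.94 FPKM over all 16 libraries, and P2ry12, a purinergic receptor of microglia, averaged 6.81 FPKM. The mean over 10 pan-neuronal markers was 104–131 FPKM in EAE and 125–143 FPKM in PBS. Snap25, a protein of synaptic vesicle release, averaged 210 FPKM. None of the 12 microglia markers and none of the 10 pan-neuronal markers was listed at 0. The lists of 8 astrocyte and 8 oligodendrocyte markers averaged over 100 FPKM in every library. Neuronal and glial transcripts thus stood above those of microglia in libraries labelled as sorted microglia. In such bulk libraries, fewer cells of a type and less RNA per cell cannot be told apart. Markers of brain regions differed in level. Slc17a7, a vesicular glutamate transporter, was the highest of 10 cortical and hippocampal markers, with a mean of 275 FPKM. Gabra6, a GABA receptor subunit of cerebellar granule cells, was the lowest of 10 cerebellar markers, with 0.0253 FPKM. These are the extremes of their lists, whose median genes averaged 10.82 and 1.799 FPKM. The lists overlapped, since the cerebellar marker Zic2 (4.92 FPKM) was above Neurod6 (4.76 FPKM), the lowest cortical and hippocampal one.

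The 9 striatal genes were well measured in all 16 libraries. Penk had the highest mean level, 75.1 FPKM, which is above 98.1% of all mRNAs. Ppp1r1b followed at 72.9 FPKM, and Penk was above it in 11 of 16 libraries, so the order of these genes did not hold beyond their spread. Pde10a at 22.1 FPKM was below Ppp1r1b in 16 of 16 libraries. Rgs9 followed at 19.1 FPKM and was below Pde10a in 14 of 16. Drd1 at 13.9 FPKM and Tac1 at 13.4 FPKM could not be ordered, since Drd1 was above Tac1 in 9 of 16 libraries. Drd2 averaged 10.9 FPKM, and Tac1 was above it in 15 of 16. Pdyn averaged 9.23 FPKM and Adora2a 7.90 FPKM, the lowest level of the 9, which is still above 67.2% of all mRNAs. The smallest count behind any of these values was 388, for Tac1.

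**Figure D1:**
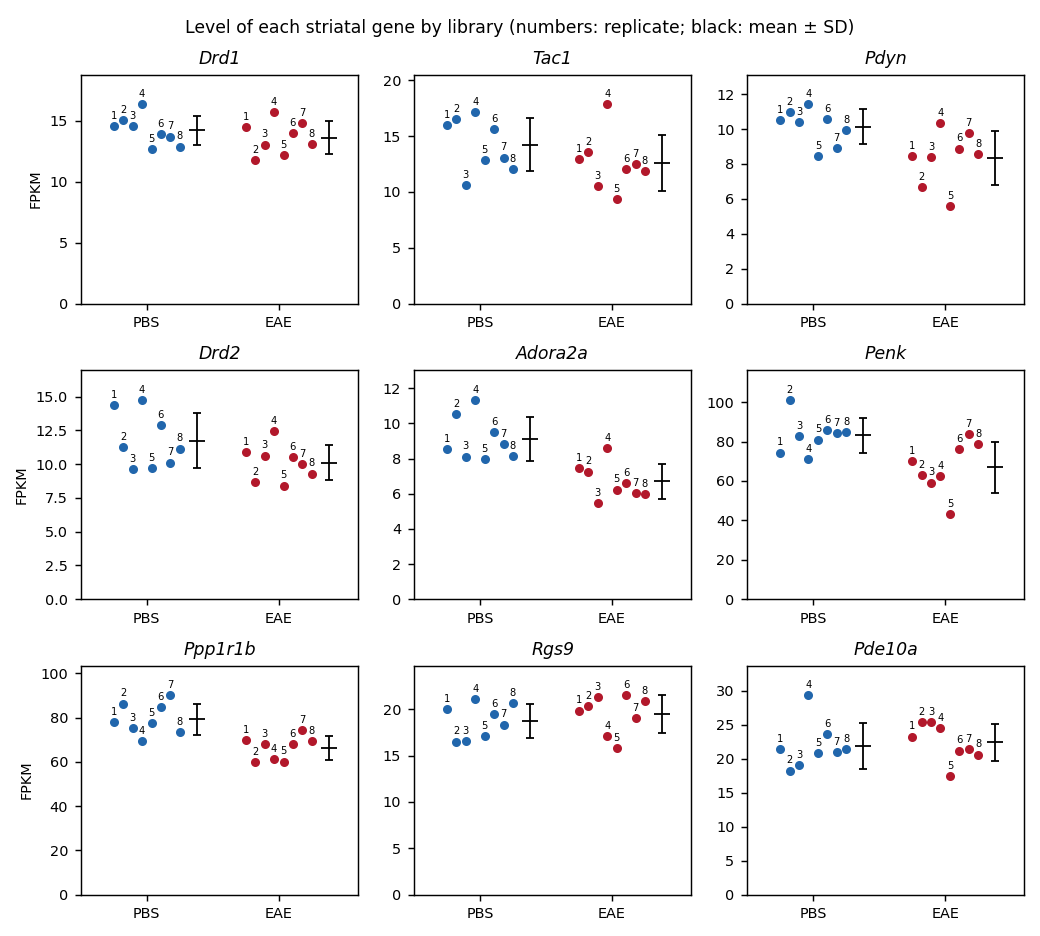
Level of each of the 9 striatal genes in FPKM (vertical axis, from 0) in 8 PBS libraries (blue) and 8 EAE libraries (red). Each point is 1 library marked with its replicate number, and the black bar is the mean ± SD of the group. The groups overlap for every gene, and the gap is clearest for Adora2a, where 7 of 8 EAE libraries lie below the lowest PBS library.

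EAE libraries held less Adora2a and Ppp1r1b mRNA than PBS libraries, and no member was called higher. In the edgeR quasi-likelihood test over all mRNAs, these 2 of the 9 genes passed an adjusted p of 0.05. Among all 17885 mRNAs tested, 1.76% were called lower in EAE and 0.66% were called higher. Among the 10598 mRNAs with a mean of at least 10 CPM (counts scaled to a common library total), as all 9 members have, 2.85% were called lower. At an unadjusted p of 0.05, 5 of the 9 were lower and 0 were higher. At that threshold 9.52% of all mRNAs were lower, and 1522 of the 10598 with at least 10 CPM. DESeq2 called 4 of the 9 lower and 0 higher, and limma-voom 2 lower and 0 higher. Over all mRNAs, DESeq2 called 3.1% lower and limma-voom 1.9%. The median log2 fold change (log2FC, EAE over PBS) of the 9 genes was −0.26. That of all tested mRNAs was 0.01, and that of the 10598 with at least 10 CPM was −0.02. No member came near the log2FC of 1 in size that the study asked of a differentially expressed mRNA.

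The receptor genes of the indirect pathway differed in how clearly they separated the groups. Adora2a, whose receptor responds to adenosine and raises cyclic AMP, ranged over 5.48–8.58 FPKM with a median of 6.42 in EAE, and over 7.97–11.3 FPKM with a median of 8.67 in PBS. All 8 EAE libraries were below the PBS median, and EAE 4 was the only EAE library that reached into the PBS range. The means were 6.70 ± 1.01 FPKM in EAE and 9.11 ± 1.24 in PBS (SD, n = 8 each), and a two-sided exact permutation test of FPKM gave p = 0.000777. Its log2FC was −0.50 (SE 0.09, 95% interval −0.69 to −0.30, adjusted p = 0.00839 in edgeR), a level 29.1% below that of PBS, and its p ranked 52 of the 17885. Drd2, whose receptor lowers cyclic AMP when dopamine binds, had 8.41–12.5 FPKM with a median of 10.3 in EAE and 9.63–14.8 FPKM with a median of 11.2 in PBS. In Drd2, 3 of 8 EAE libraries were below the lowest PBS library. Its log2FC of −0.26 (SE 0.10) had an adjusted p of 0.155 in edgeR.

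Penk, the enkephalin precursor of the same neurons, had 43.1–83.8 FPKM with a median of 66.5 in EAE and 71.0–101 FPKM with a median of 83.6 in PBS. The lowest value was that of EAE 5, and 5 of 8 EAE libraries were below the lowest PBS library. The means were 67.0 ± 13.0 and 83.2 ± 8.98 FPKM (SD, n = 8 each), a difference with p = 0.00886 in the exact permutation test. In the fit over all mRNAs its log2FC of −0.36 (SE 0.10) did not pass, with an adjusted p of 0.0651 in edgeR. The call turned on single libraries. It passed in 3 of the 16 fits without 1 library, with the lowest adjusted p, 0.0334, without EAE 7. DESeq2 gave Penk an adjusted p of 0.0201, and edgeR gave 0.0231 with a term that sets apart EAE 6, 7 and 8 with PBS 5, 7 and 8. That grouping was itself drawn from these data, and within those 6 libraries the log2FC of Penk was −0.10.

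Of the direct pathway genes, none passed the edgeR test, and their values were graded. Drd1, whose receptor raises cyclic AMP when dopamine binds, had 11.8–15.7 FPKM with a median of 13.5 in EAE and 12.7–16.4 FPKM with a median of 14.2 in PBS. The groups overlapped almost fully, and its log2FC was −0.11 (95% interval −0.25 to 0.03). Tac1 had 9.33–17.8 FPKM with a median of 12.3 in EAE and 10.6–17.2 FPKM with a median of 14.4 in PBS, so that the highest of all 16 values was an EAE library, EAE 4. Its log2FC was −0.23 (95% interval −0.47 to 0.01). Pdyn had 5.57–10.4 FPKM with a median of 8.50 in EAE and 8.43–11.4 FPKM with a median of 10.4 in PBS. All 8 EAE libraries were below the PBS median of Pdyn, and 3 were below the lowest PBS library. Its log2FC of −0.33 (SE 0.10) had an adjusted p of 0.0895 in edgeR, which fell to 0.0253 without EAE 4, and it was 0.0386 in DESeq2. The exact permutation test on FPKM gave p = 0.369 for Drd1, p = 0.194 for Tac1 and p = 0.0112 for Pdyn.

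The shared signalling genes parted from each other. Ppp1r1b had 59.8–74.4 FPKM with a median of 68.1 in EAE and 69.4–90.0 FPKM with a median of 77.8 in PBS. All 8 EAE libraries were below the PBS median, and 6 of 8 were below the lowest PBS library. The means were 66.4 ± 5.34 FPKM in EAE and 79.3 ± 7.05 in PBS (SD, n = 8 each; exact permutation test p = 0.000932), and the log2FC was −0.31 (SE 0.06, 95% interval −0.43 to −0.18, adjusted p = 0.0113 in edgeR). Rgs9 had 15.8–21.5 FPKM with a median of 20.1 in EAE and 16.5–21.1 FPKM with a median of 18.9 in PBS. Its log2FC was 0.01 (95% interval −0.13 to 0.15). Pde10a had 17.4–25.4 FPKM with a median of 22.3 in EAE and 18.3–29.3 FPKM with a median of 21.2 in PBS. Its log2FC was −0.02 (95% interval −0.19 to 0.16). Neither sign is firm: Pde10a had a log2FC of 0.00 with upper quartile scaling and its mean FPKM was slightly higher in EAE, while Rgs9 had −0.06 in 5 libraries of each group.

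The calls for Adora2a and Ppp1r1b held in each of the 16 fits that left out 1 library, with highest adjusted p-values in edgeR of 0.0228 and 0.0363, both without PBS 2. On the annotation given with the genome, GRCm38, Adora2a lies on chromosome 10 at 75316877–75334784 on the plus strand, with no other gene over it. Ppp1r1b lies on chromosome 11 at 98348404–98357796 on the plus strand, and Penk on chromosome 4 at 4133531–4138819 on the minus strand. Exons of Ppp1r1b overlap those of the antisense gene 1700003D09Rik, and exons of Penk overlap those of the antisense gene A830012C17Rik. The library kit keeps strand, but the strand setting of the counting is not given in the sources used here, so reads of these genes and their antisense partners may not be separated.

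Earlier results of these data set apart EAE 6, 7 and 8 with PBS 5, 7 and 8 as the libraries most like each other within their groups, a grouping for which the labels give no reason. Since they were chosen from these data for a small spread within groups, p-values among them are too small by that choice, and their values are given with no test. Among these 6 libraries Adora2a had a log2FC of −0.45 and Ppp1r1b −0.22. Among the other 5 libraries of each group the log2FC was −0.52 for Adora2a (adjusted p = 0.123 in edgeR) and −0.37 for Ppp1r1b (adjusted p = 0.0875). By the same choice the more spread libraries fell into this set, and it holds 5 libraries per group in place of 8. Both raise its p-values, and the part of each was not tested. There, 0 of the 9 genes passed, with 0.0336% of all mRNAs called lower. The peptide genes were less even. Penk had a log2FC of −0.10 in the 6 libraries and −0.55 in the others. Pdyn had −0.03 and −0.52, Tac1 had −0.09 and −0.31, and Drd2 had −0.08 and −0.36. Drd1 turned from 0.06 to −0.22. A difference between these sets of libraries was not tested.

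**Figure D2:**
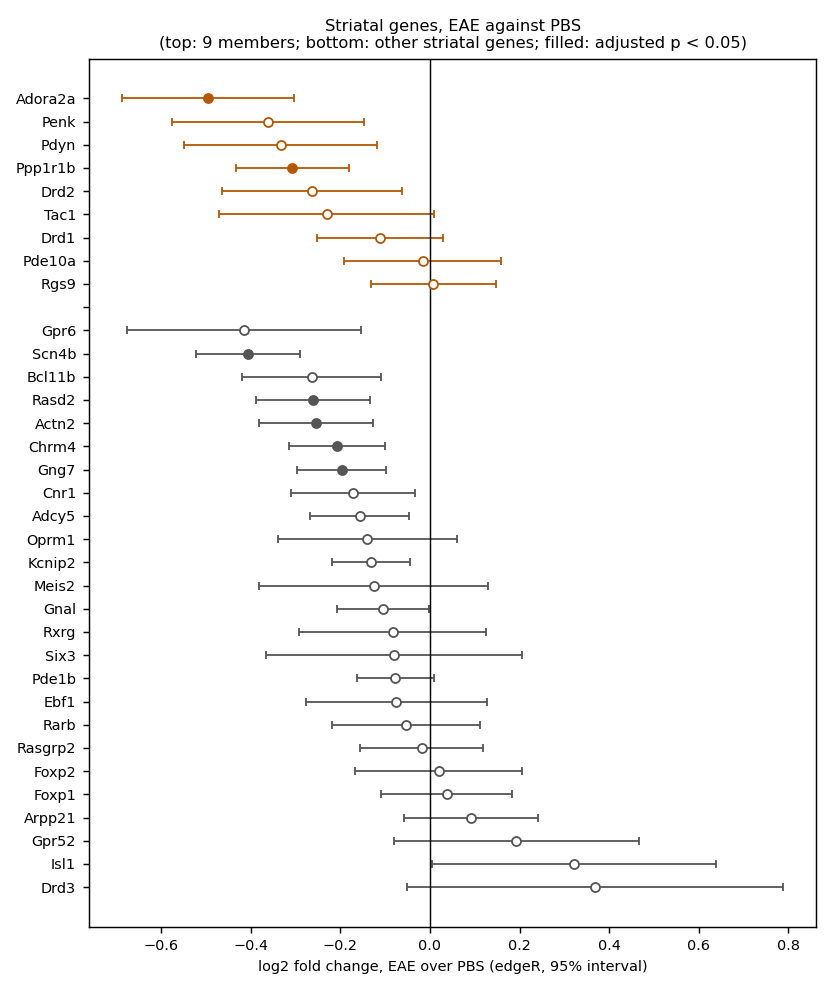
Log2 fold change of EAE over PBS (horizontal axis) with its 95% interval from edgeR, for the 9 striatal genes in orange and 25 other striatal genes in grey. Filled points have an adjusted p under 0.05. Adora2a and Ppp1r1b are filled at the top, and 5 genes are filled below, all to the left of 0.

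A further 26 genes known from medium spiny neurons were compared. Of these, 6 were called lower and 0 higher in edgeR, where 12 were lower and 1 was higher at an unadjusted p of 0.05. DESeq2 called 9 lower and 0 higher, and limma-voom 6 and 0. Over all mRNAs, edgeR called 1.76% lower (2.85% of those with at least 10 CPM), DESeq2 3.1% and limma-voom 1.9%. At an unadjusted p of 0.05 in edgeR, 9.52% were lower. These shares are the background for the lists below as well. The median log2FC of the 26 genes was −0.12, and 20 of them were not called in edgeR. The 10 signal transduction genes held 4 of the calls. Scn4b, a sodium channel subunit, had a log2FC of −0.41 (SE 0.06, adjusted p = 0.00165 in edgeR), the third smallest p of all mRNAs tested. Rasd2, a small GTP-binding protein of the striatum, fell by 0.26 on the log2 scale (adjusted p = 0.0282 in edgeR), and Actn2, an actin crosslinker, fell by 0.25 (adjusted p = 0.0295). Chrm4, a muscarinic receptor, and Gng7, a G protein subunit, were also called lower. Of 9 transcription factors 0 passed in edgeR, with 1 lower and 1 higher at an unadjusted p of 0.05 and a median log2FC of −0.08, and DESeq2 called 1 lower and 0 higher. Scn4b was called in each of the 16 fits without 1 library, Actn2 in 11 and Rasd2 in 9, and Actn2 had an adjusted p of 0.0501 in edgeR with upper quartile scaling. Rasd2 had its highest adjusted p, 0.072 in edgeR, without PBS 2.

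A list of 17 related receptors and precursors was mostly low in level. It held receptors for opioids and tachykinins, related peptide precursors, and other dopamine and adenosine receptors. Of the 17, 1 was called lower and 0 higher in edgeR, DESeq2 and limma-voom alike. At an unadjusted p of 0.05 in edgeR, 4 were lower and 0 higher. The edgeR call was Oprd1, the delta opioid receptor to which enkephalins bind, with a log2FC of −0.24 (SE 0.06, adjusted p = 0.0423 in edgeR), called in 7 of the 16 fits without 1 library and with an adjusted p of 0.0689 under upper quartile scaling. The median log2FC of the 17 was −0.11, and 6 of them averaged under 1 FPKM.

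**Figure D3:**
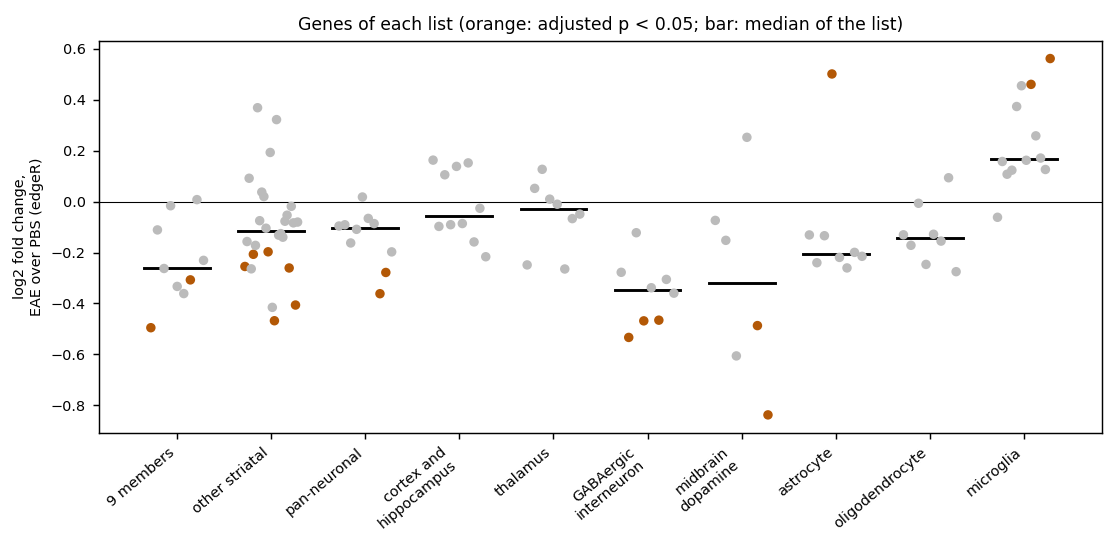
Log2 fold change of EAE over PBS in edgeR (vertical axis) for each gene of 10 lists (horizontal axis), with orange points for an adjusted p under 0.05 and a black bar at the median of the list. The bars lie at −0.26 for the 9 striatal genes, −0.10 for pan-neuronal genes, −0.35 for interneuron genes and 0.17 for microglia genes.

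Of 10 pan-neuronal genes 2 were called lower, Syp and Syt1 of the synaptic vesicle, with log2FC of −0.36 and −0.28 (adjusted p = 0.0293 and 0.0326 in edgeR), and the median log2FC of the list was −0.10. Rbfox3, which encodes the neuronal marker NeuN, had a log2FC of 0.02. Of 10 cortical and hippocampal genes 0 passed in edgeR, with 2 lower and 1 higher at an unadjusted p of 0.05 and a median of −0.06, while DESeq2 called 1 lower. Wfs1 and Slc17a7, the smallest p-values of that list, had log2FC of −0.22 and −0.16. Of the 8 markers of GABAergic interneurons 3 were called lower. Gad1, an enzyme that makes GABA and is also used by medium spiny neurons, fell by 0.53 on the log2 scale (adjusted p = 0.00309 in edgeR). Slc32a1, the vesicular GABA transporter of both cell types, fell by 0.47 (adjusted p = 0.00233), and the neuropeptide Npy fell by 0.47 (adjusted p = 0.044). Gad1 and Slc32a1 were called in each of the 16 fits without 1 library, Syp and Syt1 in 9 and Npy in 7. With upper quartile scaling, Syt1 and Npy had adjusted p-values of 0.0526 and 0.0603 in edgeR. DESeq2 called 3 pan-neuronal and 4 interneuron genes lower, limma-voom 2 and 3, and neither tool called any of them higher.

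Markers of midbrain dopamine neurons, whose axons reach the striatum, were low and partly lower in EAE. Th, the rate-limiting enzyme of dopamine synthesis, had a mean of 3.83 ± 0.81 FPKM in EAE and 6.59 ± 2.34 in PBS (SD, n = 8 each), with a log2FC of −0.84 (adjusted p = 0.0296 in edgeR). Slc6a3, the dopamine transporter, had a log2FC of −0.49 (adjusted p = 0.0495 in edgeR). The other 4 of these 6 genes did not pass in edgeR, and Slc18a2, the vesicular monoamine transporter, named after its value was seen, had a log2FC in the other direction, 0.25 (adjusted p = 0.0929 in edgeR). DESeq2 called 2 of the 6 lower and 1 higher. Th lost its call in 8 of the 16 fits without 1 library and Slc6a3 lost it in 12, and limma-voom called 0 of the 6.

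Of 12 microglia markers 2 were called higher, Itgam, the CD11b of the sort, by 0.46 and Trem2, a lipid-sensing receptor, by 0.56 on the log2 scale (adjusted p = 0.0018 and 0.0282 in edgeR). Itgam had 7.39–9.61 FPKM in EAE and 4.94–6.56 FPKM in PBS, with no overlap. Of 8 astrocyte markers 1 was called higher, Gfap, the filament protein of reactive astrocytes, with a log2FC of 0.50 (adjusted p = 0.0312 in edgeR). The other 7 had a log2FC below 0, and the median of that list was −0.21. At an unadjusted p of 0.05 in edgeR, 5 of the 8 were lower and 1 was higher. Gfap was called in 8 of the 16 fits without 1 library and Trem2 in 11, and among the 6 libraries most alike the log2FC of Gfap was −0.05. Of 8 oligodendrocyte, 8 thalamic and 10 cerebellar markers 0 passed in edgeR, with 3, 1 and 2 lower and 0 higher at an unadjusted p of 0.05. DESeq2 called 1 oligodendrocyte marker lower and 0 of the thalamic and cerebellar ones. The smallest p-values of these lists included those of Cnp of myelin, with a log2FC of −0.17, Slc17a6 and Calb2 (−0.26 and −0.25), and Neurod1 and Cbln1 (−0.38 and −0.28). The part of these other cell types in the striatal values was not tested.

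The overall neuronal level was also used as a covariate. The mean log2 CPM over the 10 pan-neuronal genes was 8.17–8.41 in EAE and 8.38–8.58 in PBS, with little overlap, so that group and neuronal level cannot be told apart well. With it in the model the log2FC was −0.30 for Adora2a (unadjusted p = 0.0285 and adjusted p = 0.458 in edgeR), −0.17 for Ppp1r1b, and 0.00 and 0.01 for Penk and Pdyn. None of the 9 genes passed in that model, in which 0 of all 17885 mRNAs were called, and 1 of the 9, Adora2a, had an unadjusted p under 0.05.

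**Figure D4:**
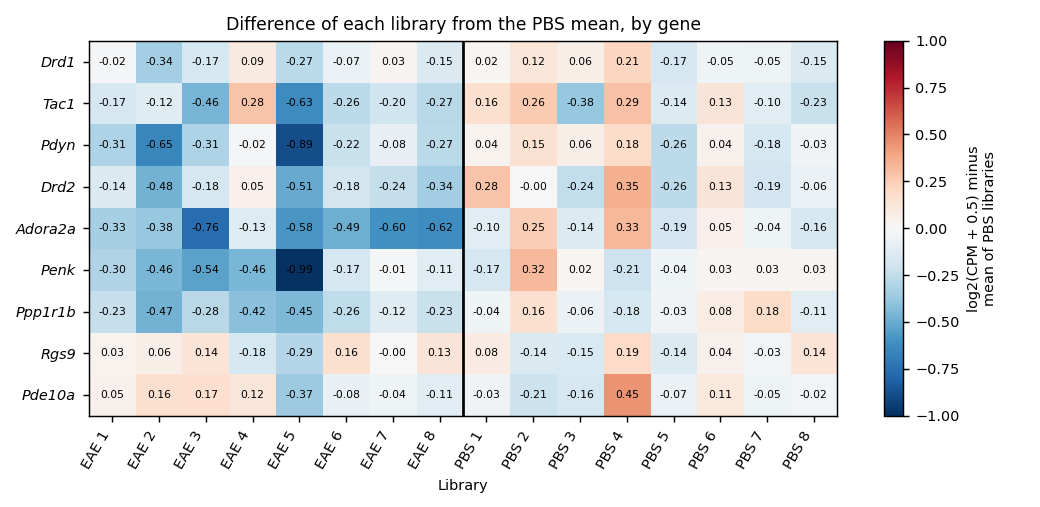
Difference of each library (columns) from the mean of the 8 PBS libraries in log2(CPM + 0.5), for each striatal gene (rows), in blue where lower and red where higher. EAE 5 is lower for 9 of 9 genes, and EAE 4 is lower for 5 of 9.

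Viewed by library, the deficit was uneven within the EAE group. EAE 5 was below the PBS mean in 9 of 9 genes, with a mean difference of −0.55 on the log2 CPM scale over the 9. EAE 4 stood at the other end, with 5 of 9 genes below and a mean difference of −0.07. EAE 5 also had the lowest pan-neuronal mean of the 16 libraries, a log2 CPM of 8.17. EAE 4 and EAE 7 had the highest of the EAE group, 8.41. The part of the general neuronal level in these extremes was not tested. The median EAE library had a mean difference of −0.20. PBS libraries were spread as well: PBS 5 was below the PBS mean in 9 of 9 genes, by −0.14 on average, and PBS 4 was above it by 0.18. The summed share of the 9 genes was 751–993 CPM of the library total in EAE, with a median of 973, and 919–1142 CPM in PBS, with a median of 997. Pde10a, a long gene, gave the most counts of the 9, with 8792–14265 per library.

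**Figure D5:**
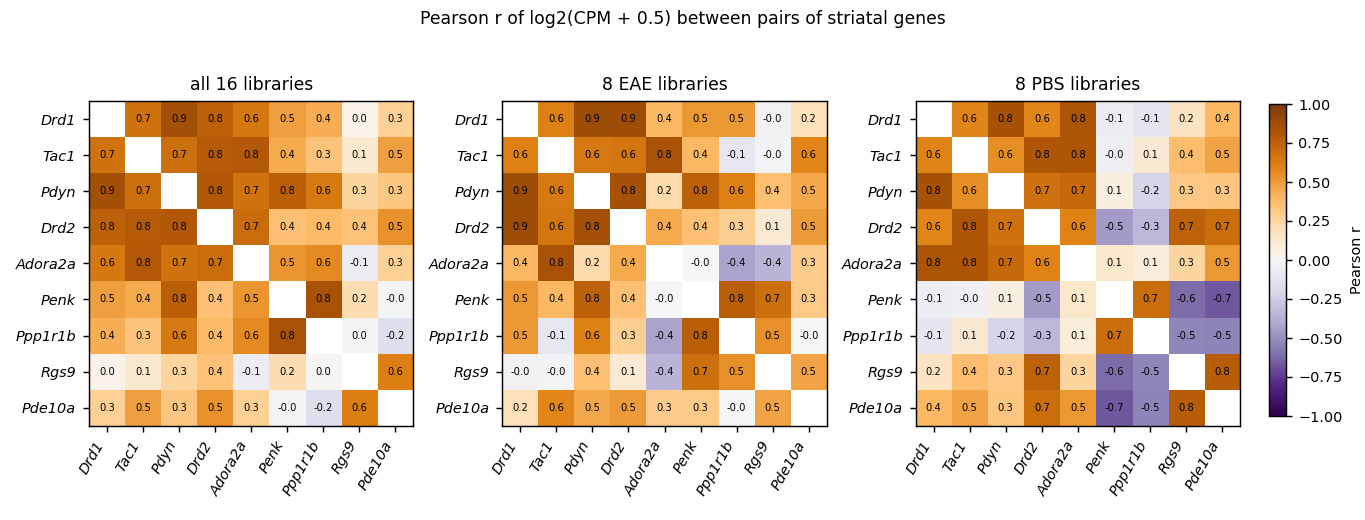
Pearson r of log2(CPM + 0.5) between pairs of the 9 striatal genes over all 16 libraries (left), the 8 EAE libraries (middle) and the 8 PBS libraries (right), from purple (−1) to brown (1). Over 16 libraries the pairs range from −0.15 to 0.85, with a block among Drd1, Tac1, Pdyn, Drd2 and Adora2a. Further pairs are Rgs9 with Pde10a and Penk with Ppp1r1b, and the latter 2 genes are also tied to Pdyn (r = 0.76 and 0.63).

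The 9 genes did not vary as 1 unit over libraries. Of 36 pairs, 33 had a Pearson r above 0 over 16 libraries, and 14 had an adjusted p under 0.05 by permutation (Benjamini-Hochberg over the 36 pairs), 13 of them also by Spearman's rho. Values over all 16 libraries include the difference between the groups. Within the 8 EAE or the 8 PBS libraries alone, 0 pairs passed the adjustment in the exact permutation test, and 6 and 9 pairs had an unadjusted p under 0.05. With 8 libraries in place of 16 fewer pairs can pass. The drop to 0 therefore cannot show how much of these relations rests on the group difference. The median r was 0.49 over all libraries, 0.45 within EAE and 0.35 within PBS.

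Drd1 and Pdyn, both of the direct pathway, were the closest pair, with r = 0.85 and rho = 0.86 (adjusted permutation p = 0.00036 and 0.00108), and r = 0.88 within EAE and 0.84 within PBS. Without the 2 libraries farthest from the median of Drd1 their r was 0.79. Penk and Ppp1r1b came next, with r = 0.84 and rho = 0.86 (adjusted permutation p = 0.00036 and 0.00126), and r = 0.77 within EAE and 0.69 within PBS. Their r was 0.82 without 2 libraries. Penk was less close to Drd2 and Adora2a, the receptors of its own pathway, with r = 0.36 and r = 0.52 (adjusted permutation p = 0.271 and 0.0762, rho = 0.22 and 0.48 with adjusted p = 0.54 and 0.132). Within the PBS libraries, r for Penk and Drd2 was −0.46. Pdyn, of the direct pathway, had r = 0.76 with Penk and 0.63 with Ppp1r1b (adjusted permutation p = 0.00643 and 0.0217). These were 0.75 and 0.61 within EAE, but 0.07 and −0.22 within PBS. Rgs9 and Pde10a had r = 0.61 (adjusted permutation p = 0.0263), while rho was 0.50 (adjusted p = 0.122). Of the 14 pairs, 11 kept an r of at least 0.5 without the 2 outermost libraries. All members share the depth and the tissue content of a library.

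The ratio of 2 members in the same library does not depend on how the libraries are scaled, and 36 such ratios were compared after the values above had been seen. Of these, 16 passed 0.05 in the exact permutation test, and 10 still did after Benjamini-Hochberg adjustment over the 36. The ratio of Adora2a to Pde10a counts separated the groups fully, with log2 values of −4.53 to −3.80 in EAE and −3.72 to −3.12 in PBS. The difference was −0.48 (exact permutation p = 0.000155, the smallest that 8 against 8 allow, adjusted p = 0.00559). Adora2a to Rgs9 differed by −0.50 (exact permutation p = 0.00233, adjusted p = 0.021), Penk to Rgs9 by −0.39 (p = 0.00855 and 0.0385) and Ppp1r1b to Rgs9 by −0.31 (p = 0.00699 and 0.0385). Pde10a and Rgs9 had the longest gene lengths behind the FPKM, 16958 and 8647 bases. Those of Adora2a, Ppp1r1b and Penk were 3398, 2114 and 1748 bases. A part of gene length in these ratios was not tested.

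Adora2a was also set against the direct pathway genes. Relative to it, Drd1 was higher by 0.38 on the log2 scale in EAE (exact permutation p = 0.000622, adjusted p = 0.00932) and Tac1 by 0.26 (p = 0.00528 and 0.038), whereas the 0.15 of Pdyn did not pass (p = 0.258 and 0.407). Drd1 to Pdyn, within the direct pathway, rose by 0.24 (exact permutation p = 0.000777, adjusted p = 0.00932). Against Drd2, its partner in the indirect pathway, the shift of Adora2a was of like size but did not pass, with Drd2 to Adora2a at 0.24 (exact permutation p = 0.0347, adjusted p = 0.0983). The ratio of Drd1 to Drd2, as FPKM, was 1.23–1.48 in EAE and 1.02–1.51 in PBS, and its log2 difference of 0.14 did not pass (exact permutation p = 0.0839). Rgs9 to Pde10a differed by 0.02 (exact permutation p = 0.819).

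The mRNAs whose pattern was most like that of the 9 genes were sought over the 16 libraries by Pearson r of deviations from the group means, so that the group difference itself does not count. This is a description with no test. Among 14750 mRNAs at a mean of 1 CPM or more, Gpr101, an orphan receptor, was first with r = 0.89, followed by Sgpp2 (0.88), Cacfd1 (0.87), Mal2 (0.86), Idh3g (0.86), Sytl2 (0.86), Creg2 (0.86), Rabep2 (0.86), Rtn1 (0.85) and Enpp5 (0.85). Of these, Rtn1 and Enpp5 were themselves lower in EAE, with log2FC of −0.28 and −0.27 (adjusted p = 0.0449 and 0.0437 in edgeR). None of the 10 was on a marker list used here.

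By the same measure, each member was set against the mean of the other 8. Pdyn was the most alike, with r = 0.84 and rank 20 of 14751. Drd2, Tac1 and Drd1 had r of 0.73, 0.72 and 0.72. Adora2a had 0.48, Pde10a 0.47, Penk 0.41, Rgs9 0.34 and Ppp1r1b 0.13. Adora2a and Ppp1r1b, the genes called lower between the groups, thus ranked 1805 and 5933, below Pdyn, Drd1, Drd2 and Tac1. The other 26 striatal genes had a median r of 0.39 with the members, the pan-neuronal genes 0.48 and the cortical and hippocampal genes 0.42. The astrocyte markers had a median r of −0.36, the cerebellar markers −0.09, and all compared mRNAs 0.01.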

How the data were processed

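RNA of microglia sorted as CD11b+/CD45int from 8 EAE and 8 PBS-treated samples was analysed, grouped by the labels. The authors deposited read counts per gene and FPKM, both per mRNA and library. The submitters' processing notes name bcl2fastq, HISAT2 2.1.0, HTSeq 0.11.2 and DESeq2 1.22.2, and the build GRCm38. The deposited FPKM values equal the count divided by library total and gene length, to within 1.15e-09 in 7749 mRNAs, so they keep shifts in RNA content between libraries. 

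All mRNAs whose counts summed to 16 or more were tested with edgeR 4.0.16 (R 4.3.3, TMM scaling, quasi-likelihood test, Benjamini-Hochberg over 17885 mRNAs) with a call at an adjusted p of 0.05, and the script was tested on simulated data. The TMM factors were 1.005–1.032 in EAE and 0.960–0.997 in PBS, with no overlap. Single genes were also compared by a two-sided exact permutation test on FPKM over all 12870 divisions of the libraries. Correlations used log2(CPM + 0.5) with 100000 permutations, and all pairings within a group. Alternatives were other scalings, DESeq2 1.42.0, limma-voom (limma 3.58.1), other filters, a replicate block, covariates and leaving out libraries. The ratios of members and the permutation test on TMM-scaled CPM were added after seeing the data.

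The 9 members and all gene lists were chosen with earlier results of these data known. From each other list, up to 4 genes with an adjusted p under 0.05 and the smallest p were named, or otherwise the 2 with the smallest p, with fixed reference markers and the 10 most alike mRNAs. Chrm4 and Gng7 were named beyond that rule after their values were seen. Sequences were not used here. Individual values of 2 genes of these lists are not reported here, though they count in the totals of their lists.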

Additional observations from a re-analysis of the deposited data

How the results depend on the processing

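Adora2a and Ppp1r1b were called lower under each alternative scaling, filter and tool. They lost their calls in the 5 libraries of each group outside the 6 most alike ones and with the pan-neuronal covariate, where 0 of 9 genes passed. In those 5 libraries of each group their log2FC, −0.52 and −0.37, were larger in size than the −0.50 and −0.31 of the main test. The number of the 9 called lower was 2, with 4 in DESeq2, 3 with a term for the 6 libraries, which added Penk, and 2–4 without 1 library, the 4 without EAE 4. Over all mRNAs, DESeq2 called 296 higher and 601 lower, a term for the 6 libraries gave 242 and 526, those 6 libraries alone, chosen for their small spread, 1901 and 2251, the other 5 of each group 10 and 6, the covariate 0 and 0, and upper quartile scaling 187 lower. The share of calls that were higher was 27.3% in the main test and 41.2% with upper quartile scaling. Without 1 library, 39–502 were higher and 104–815 lower, most without EAE 4 and fewest without EAE 2 or PBS 2. The cause of these changes was not tested.

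The replicate numbers did not pair the samples: the deviations of same-numbered libraries correlated at −0.34 to 0.63, over 0.1 in 3 of 8 pairs, and 2 EAE libraries correlated best with their own number. With a replicate block, 5 of 9 genes were called lower, adding Pdyn, Drd2 and Penk, and 150 mRNAs were higher and 367 lower.

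The following signs turned. With the covariate the log2FC was 0.072 for Drd1, 0.0272 for Tac1, 0.00583 for Pdyn, 0.00384 for Penk, 0.111 for Pde10a, 0.0163 for Slc17a7 and 0.104 for Snap25. In the 6 libraries it was 0.0638 for Drd1, 0.0433 for Slc17a7 and −0.0468 for Gfap, and in the others −0.0565 for Rgs9, 0.21 for Calb2 and −0.00142 for Rbfox3. Pde10a had 0.00294 with upper quartile scaling and 0.0339 on mean FPKM. Without 1 library Rgs9 ranged over −0.0164 to 0.0471, Pde10a over −0.0445 to 0.0577 and Rbfox3 over −0.0083 to 0.0574. Genes under 1 FPKM, such as Gabra6, limit what the cerebellar list can show at this depth.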
